A study of Homo sapiens with 6 samples.

Results

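The genes described here are TTR, SERPINA1, PAX8, HNF4A, FOXA2 and CEBPA, 6 of the 63241 genes in a table of read counts. The counts come from T24, an established cell line of human bladder cancer. They were chosen by name, with the loss of TTR counts in the siUSP43 libraries already known, so the difference between the groups is given for these 6 genes as a description and is not tested. In the control group, siNC, labelled wild type, cells received a negative-control small interfering RNA, and in the second, siUSP43, labelled USP43 knockdown, one against the deubiquitinating enzyme gene USP43. Both groups held 3 libraries, all from total RNA and from the same labelled batch. All are of the T24 line, grown in RPMI 1640 with serum. The labels give neither the duplex sequences nor the time after transfection. They do not say whether libraries of a group came from separate cultures, so p-values below measure only the spread between these libraries, which may be technical. The series set out to learn how USP43 bears on lipid metabolism in bladder cancer.

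TTR and SERPINA1 encode proteins that hepatocytes secrete into plasma. Transthyretin, the product of TTR, carries thyroxine and, bound to RBP4, retinol, and is also made by the choroid plexus. Alpha-1-antitrypsin, the product of SERPINA1, inhibits neutrophil elastase and rises in the acute phase response. HNF4A, FOXA2 and CEBPA encode transcription factors known for driving hepatocyte genes, the TTR gene among them, while PAX8 encodes a paired-box factor of the kidney, the thyroid and the Müllerian tract.

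Libraries held 21430574 to 25577200 gene counts. USP43 had 343, 310 and 309 counts in siNC and 155, 86 and 123 in siUSP43, and it fell by 1.39 on the log2 scale (SE 0.13; edgeR quasi-likelihood test, Benjamini-Hochberg adjusted p = 1.63e-06; exact two-sided permutation p = 0.1, the smallest possible with 3 against 3). Of 16048 genes with a mean of at least 10 counts, 48.6% passed this test at an adjusted p under 0.05, with 24.1% higher and 24.5% lower in siUSP43. The groups did not overlap in FPKM, fragments per kilobase of exon scaled to library size, for 55.6% of tested genes. Among 18 markers of the labelled cell type some were abundant and others absent. KRT7 and KRT8, keratins of simple epithelium, and VIM, the mesenchymal filament gene, stood at 236 ± 3.97, 88.0 ± 1.70 and 438 ± 12.0 FPKM in siNC (SD, n = 3 each). TP63, KRT5, KRT20 and UPK1B, genes of urothelial layers, had at most 3 counts in any library.

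TTR (ENSG00000118271, GRCh38 chromosome 18, 31557009 to 31598833, plus strand) was the gene that stood furthest apart. It had 413, 467 and 1030 counts in siNC replicates 1, 2 and 3, and 0, 1 and 0 in siUSP43. All 3 control libraries therefore held TTR well above the floor of counting, replicate 3 most of all, while the knockdown libraries together held 1 count. In FPKM the control values were 6.64, 7.35 and 16.16, a mean of 10.05 ± 5.30 (SD, n = 3), against 0, 0.02 and 0 in siUSP43. The ratio of summed counts, siNC over siUSP43 and scaled to library totals, was 1885, and its exact 95% interval, 338 to 74492, covers counting error only. For siUSP43 replicates 1 and 3, at 0, a floor of 3 counts was taken at the smallest siUSP43 library total, that of replicate 2. Against this floor siNC replicates 1, 2 and 3 were at least 123, 136 and 299-fold higher. Replicate 2 of siUSP43 itself held 1 count, which this floor does not cover.

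Among the 12473 genes with at least 50 counts in every library of a group, TTR was the only gene with at most 3 counts in every library of the other group. There were 0 genes with the opposite pattern, gained in siUSP43. A drop of 10-fold or more between the nearest libraries of the groups was seen in 2 genes with at least 50 counts in each siNC library, TTR and CDH6. CDH6, a cadherin of the developing kidney tubule, had 57, 69 and 54 counts in siNC and 3, 5 and 5 in siUSP43. It fell, with a log2 fold change of -3.73 (SE 0.32; edgeR, Benjamini-Hochberg adjusted p = 5.53e-07).

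**Figure D1:**
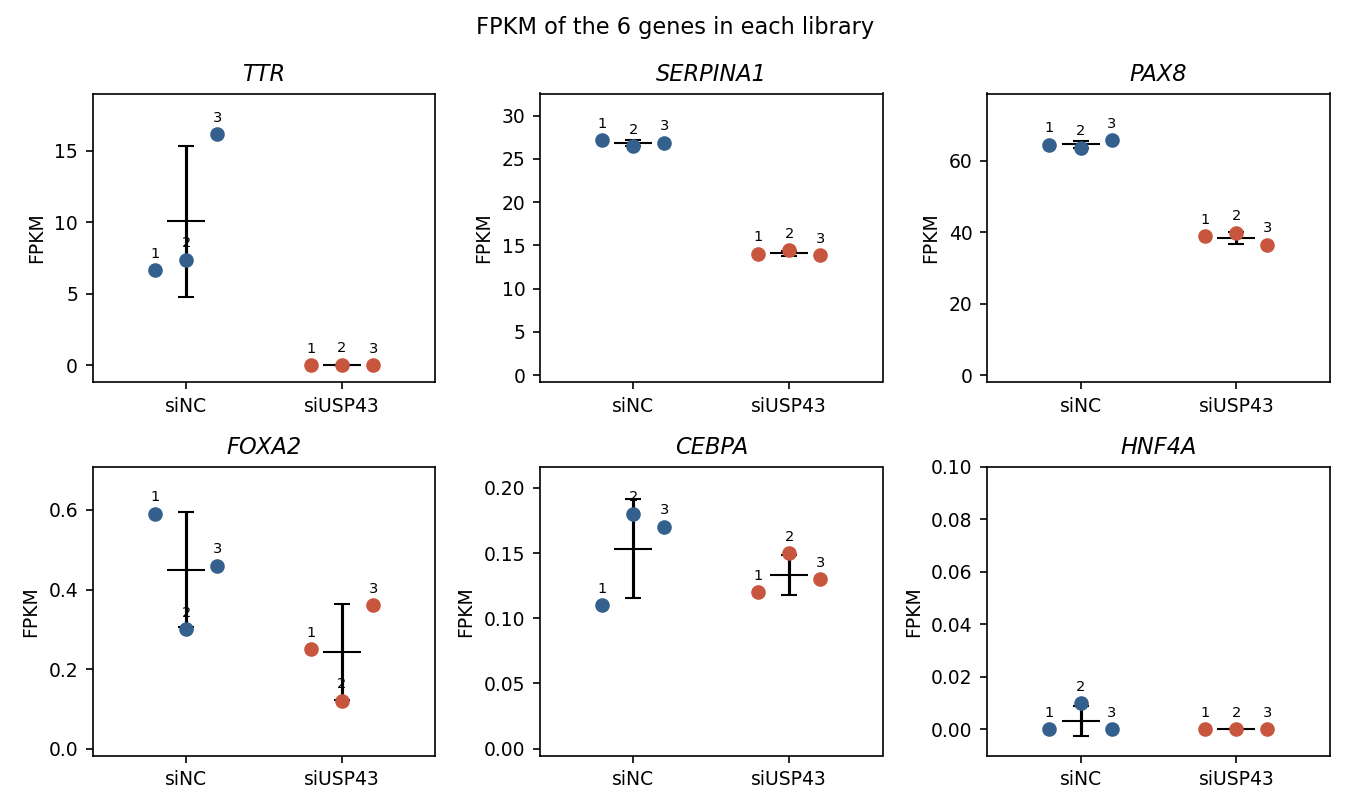
Deposited FPKM of the 6 genes in each library (vertical axes, linear, in FPKM); points are libraries numbered by replicate, the horizontal mark is the group mean and the bar is 1 SD (n = 3). TTR lies between 6.64 and 16.16 FPKM in siNC and at 0 to 0.02 in siUSP43. SERPINA1 and PAX8 do not overlap between groups, as 55.6% of all tested genes did not. The other 3 genes lie at or below 0.59 FPKM and overlap.

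TTR also varied between control libraries more than nearly all genes of its level. Replicate 3 held 53.9% of the siNC counts, and the highest siNC count was 2.49 times the lowest. Among 4898 genes with a mean siNC count of 300 to 1300, the median of this ratio was 1.10 and its 99th percentile 1.32. A ratio of at least 2 was found in 5 of them, CD99, EIF3CL, TTR, GTF2IP1 and SMN1, which are named here because of these values. How reads that match more than one place were counted is not given in the sources used here. Its part in these 5 ratios, that of TTR included, was not tested. For example, SMN1 had 624, 1400 and 864 counts in siNC and 637, 566 and 1392 in siUSP43, and so was high in a library of each group.

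**Figure D2:**
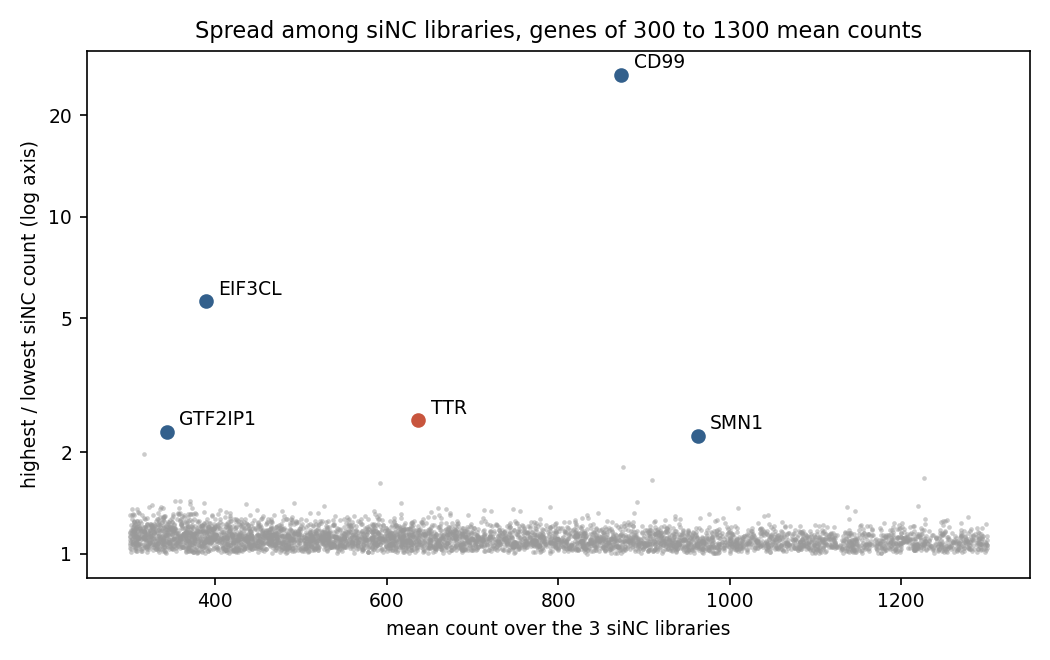
Ratio of the highest to the lowest siNC count (vertical log axis) against the mean siNC count (horizontal axis, counts) for 4898 genes with a mean of 300 to 1300; each point is a gene and the 5 genes with a ratio of at least 2 are named. TTR, at 2.49, stands well above the 99th percentile of 1.32.

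The TTR gene model in the deposited table has an exonic size of 2176 bases, over which the FPKM values are scaled. GENCODE release 29, on the same build, gives TTR 6 transcripts with 4 start sites, 3 of the sites between positions 31591726 and 31591877 and the other at 31557010, far upstream. The table counts reads for the gene as a whole, so the transcripts cannot be told apart. DSG2-AS1, which starts 0.061 kb from the upstream start on the other strand and does not overlap the deposited TTR model, had 7, 11 and 13 counts in siNC and 10, 12 and 9 in siUSP43. Its groups overlapped.

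Genes around TTR did not share its pattern. Of 34 genes that start within 500 kb, 8 were tested, of which 1 rose, 1 fell and 6 did not pass. Over all tested genes 24.1% rose and 24.5% fell. DSG2, the desmoglein gene on its upstream side, had 6219, 6217 and 5631 counts in siNC and 6271, 4445 and 7103 in siUSP43 (log2 fold change -0.01, SE 0.08). B4GALT6, a galactosyltransferase gene on the downstream side, rose (log2 fold change 0.56, SE 0.09; edgeR, Benjamini-Hochberg adjusted p = 1.32e-04). RNF125, a ubiquitin ligase gene 462 kb downstream, fell by 0.51 on the log2 scale (SE 0.16; edgeR, Benjamini-Hochberg adjusted p = 0.0179). The RNF125 groups overlapped, at 0.80, 0.80 and 0.61 FPKM in siNC and 0.49, 0.45 and 0.62 in siUSP43.

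Genes for proteins and receptors that handle the cargo of transthyretin changed in both directions. Of 19 listed genes of thyroid hormone and retinol handling 12 were tested, and 5 rose, 3 fell and 4 did not pass, where 24.1% of all tested genes rose and 24.5% fell, with a median log2 fold change of 0.06 against -0.01 over all tested genes. RBP4, the retinol carrier that transthyretin binds, had 326, 244 and 279 counts in siNC and 334, 329 and 290 in siUSP43. Its log2 fold change was 0.20 (SE 0.13), which did not pass. CRABP2, an intracellular retinoic acid carrier, fell by 0.86 on the log2 scale. The nuclear thyroid hormone receptors THRA and THRB rose, with log2 fold changes of 0.32 and 0.54. THRA overlaps MED24 and NR1D1 on the other strand, and since the strand setting is not given their reads cannot be told apart.

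DIO2 and STRA6, both far below 1 FPKM and named here after their values were seen, moved further. DIO2, the deiodinase that activates thyroxine, had 20, 16 and 16 counts in siNC and 42, 51 and 70 in siUSP43 (log2 fold change 1.66, SE 0.27; edgeR, Benjamini-Hochberg adjusted p = 1.75e-04). STRA6, the receptor for RBP4, had 15, 10 and 36 counts in siNC and 7, 4 and 1 in siUSP43 (log2 fold change -2.29, SE 0.61; edgeR, Benjamini-Hochberg adjusted p = 0.00687). The STRA6 call was lost with limma on either log2 FPKM scale (adjusted p = 0.0999 and 0.0516). As with TTR, its siNC replicate 3 was the highest library. Counted without siNC replicate 1, or with limma, 3 genes of the list rose in place of 5. Other carriers of thyroxine were barely present, SERPINA7 with at most 3 counts in any library, as was ALB.

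SERPINA1 (ENSG00000197249, GRCh38 chromosome 14, 94376747 to 94390693, minus strand) had 3802, 3786 and 3860 counts in siNC and 2054, 1788 and 2052 in siUSP43. The 3 control libraries lay close together and far above the 3 knockdown libraries. In FPKM the means were 26.8 ± 0.339 and 14.1 ± 0.291 (SD, n = 3 each), with a log2 fold change of -0.93 (SE 0.05). Per length, SERPINA1 stood at 2.67 times the TTR level in siNC. Of all tested genes 4.94% had a log2 fold change as low or lower.

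SERPINA1 is known to be transcribed from an upstream group of start sites and from an inner one that hepatocytes use. GENCODE release 29 lists 20 transcripts with 14 start sites, and the gene-level counts do not separate the groups. RefSeq promoter entries (GRCh38.p14) were found for 4 of the 6 genes, SERPINA1, PAX8, HNF4A and CEBPA, and not for TTR and FOXA2. The 250 bases before each of the SERPINA1 starts and before the PAX8 start are shown because both genes were lower in siUSP43 without overlap and SERPINA1 is known as a target of liver factors. The groups did not overlap in FPKM for 55.6% of all tested genes. Capitals mark matches to the motifs searched.
SERPINA1 upstream start, chr14:94390636-94390885, minus strand: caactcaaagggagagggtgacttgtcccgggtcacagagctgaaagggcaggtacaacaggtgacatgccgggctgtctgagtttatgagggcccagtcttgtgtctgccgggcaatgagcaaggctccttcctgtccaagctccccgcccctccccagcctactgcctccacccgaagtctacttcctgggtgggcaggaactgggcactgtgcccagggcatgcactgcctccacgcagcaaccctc
SERPINA1 inner start, chr14:94388603-94388852, minus strand: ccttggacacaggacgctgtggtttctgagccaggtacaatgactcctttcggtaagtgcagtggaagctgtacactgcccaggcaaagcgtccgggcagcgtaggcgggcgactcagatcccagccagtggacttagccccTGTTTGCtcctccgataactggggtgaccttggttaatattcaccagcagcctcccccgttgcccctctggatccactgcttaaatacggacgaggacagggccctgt
PAX8, chr2:113278922-113279171, minus strand: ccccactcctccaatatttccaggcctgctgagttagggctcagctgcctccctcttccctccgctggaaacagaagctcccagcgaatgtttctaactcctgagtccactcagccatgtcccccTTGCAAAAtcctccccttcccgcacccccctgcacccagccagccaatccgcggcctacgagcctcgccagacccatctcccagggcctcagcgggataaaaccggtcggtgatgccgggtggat

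The motifs were searched on both strands of the 250 bases, and shares are of the 35116 RefSeq windows of that length. For FOXA factors, TGTTTAC was found in 2.98% of windows and TGTTTGC in 3.23%. The remaining FOXA forms, TATTTAC and then TATTGAC, were in 2.39% and 1.14%. For C/EBP factors, TTGCGCAA was in 0.131% of windows and TTGCNNAA, which contains it, in 9.05%. For HNF1, GTTAATNAT was in 0.723%. For HNF4, CAAAGTCCA was in 0.325% and CAAAGGTCA, which shares its first 5 letters, in 0.339%. The inner SERPINA1 window held TGTTTGC, at position -108 from the start site. The PAX8 window held TTGCAAAA, a match to TTGCNNAA, at position -125. The upstream SERPINA1 window, both HNF4A windows and the CEBPA window held none of the motifs. Only exact matches were marked, so a stretch that differs by a letter is not, such as gttaatatt in the inner SERPINA1 window against GTTAATNAT. Matches describe the letters of these windows only.

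SERPINA1 lies in a cluster of clade A serpin genes on chromosome 14, and the tested neighbours of that clade fell. Of 10 other listed clade A serpins 3 were tested, and all 3 fell, where 24.5% of all tested genes fell. Their median log2 fold change was -0.69. SERPINA6, which encodes corticosteroid-binding globulin and starts 67.3 kb from SERPINA1, had 122, 116 and 100 counts in siNC and 45, 25 and 36 in siUSP43. Its log2 fold change was -1.65 (SE 0.19; edgeR, Benjamini-Hochberg adjusted p = 7.68e-06). SERPINA10, a protein Z-dependent protease inhibitor, had 62, 76 and 70 counts in siNC against 42, 44 and 45, and SERPINA5, the protein C inhibitor, 41, 29 and 43 against 25, 18 and 26. Their log2 fold changes were -0.64 and -0.69 (adjusted p = 0.0110 and 0.0382), and the SERPINA5 call was lost in DESeq2 (adjusted p = 0.0968) and without any library but siNC replicate 2 (0.0564 to 0.133). SERPINA4, SERPINA7, SERPINA11 and SERPINA12 had at most 3 counts in any library.

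Beyond the serpins the interval was mixed. Of 35 genes within 500 kb of the SERPINA1 start 10 were tested, the 3 serpins among them. Of the 10, 6 fell, 3 rose and 1 did not pass, where 24.5% of all tested genes fell and 24.1% rose. PPP4R4, a phosphatase subunit gene, fell by 0.51 on the log2 scale (SE 0.07). ASB2 and DDX24, at 414 and 309 kb, rose, with log2 fold changes of 1.04 and 0.37.

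**Figure D3:**
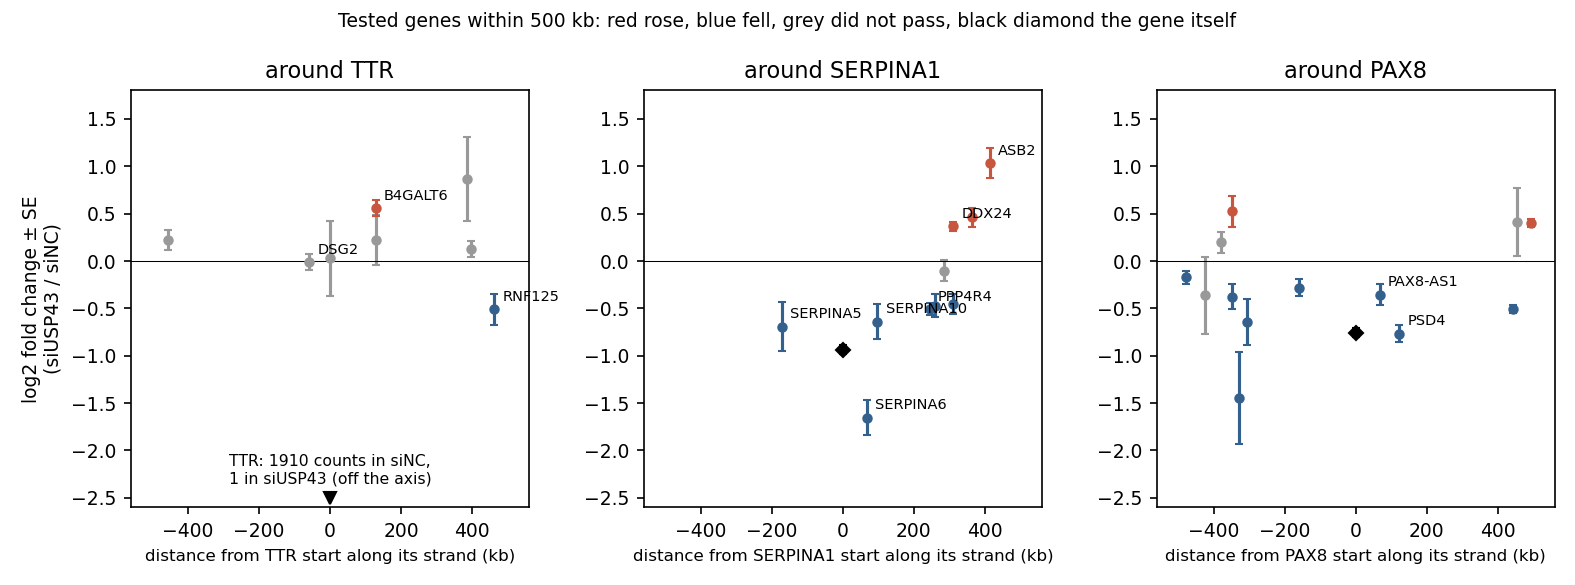
Log2 fold change of siUSP43 over siNC (vertical axis, bars are 1 SE) for tested genes within 500 kb of TTR, SERPINA1 and PAX8, by distance from the start of that gene along its strand (horizontal axis, kb). Around TTR 6 of 8 genes did not pass, and around SERPINA1 the 3 other clade A serpins are all below 0. Around PAX8 8 of 13 genes fell, where 24.5% of all tested genes fell.

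Serpins of other clades went both ways, 2 rising and 4 falling of 12 tested, where 24.1% of all tested genes rose and 24.5% fell, with a median log2 fold change of 0.05. SERPINB2, an inhibitor of plasminogen activators, fell by 0.98 on the log2 scale, while SERPINB7 rose from 2.59 ± 0.250 to 8.65 ± 0.485 FPKM (SD, n = 3 each). SERPINB1, an inhibitor of neutrophil proteases, rose, with a log2 fold change of 0.44. SERPINH1, the collagen chaperone gene, did not pass, at 0.01 (SE 0.05).

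Acute phase genes and the IL6 family, to which SERPINA1 is known to respond, changed in both directions. Of 12 tested genes 8 fell, 3 rose and 1 did not pass, where 24.5% of all tested genes fell and 24.1% rose. Their median log2 fold change was -0.46. C3, the complement component, had 8193, 8219 and 8343 counts in siNC and 4320, 3407 and 4404 in siUSP43 and fell by 1.01 on the log2 scale (SE 0.05). SAA1 and SAA2, the serum amyloid A genes, fell by 1.29 and 1.19 on the log2 scale, and as near-identical copies may share reads. IL6, the cytokine itself, fell by 0.60, SOCS3, its feedback inhibitor, by 0.71 and LIFR, a receptor of the family, by 1.01. IL6R, the receptor for IL6, had 107, 121 and 118 counts in siNC and 216, 137 and 272 in siUSP43, and it rose, with a log2 fold change of 0.86 (SE 0.16; edgeR, Benjamini-Hochberg adjusted p = 5.93e-04). STAT3, the signal transducer, rose by 0.25 (SE 0.05). CRP, HP, FGB and LBP, acute phase genes of the liver, had at most 3 counts in any library.

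Genes that fold, export and degrade secreted glycoproteins such as alpha-1-antitrypsin changed in both directions. All 15 listed genes were tested, and 4 rose, 2 fell and 9 did not pass, where 24.1% of all tested genes rose and 24.5% fell. Their median log2 fold change was -0.01. LMAN1 and MCFD2, which together carry cargo out of the endoplasmic reticulum, had log2 fold changes of 0.01 (SE 0.07) and -0.05 (SE 0.06) and did not pass. CANX, the lectin chaperone calnexin, rose by 0.42, EDEM3, a mannosidase of degradation, by 0.68, and SEL1L, of the ubiquitin ligase complex, by 0.37. SEC24D, a coat protein gene, fell by 0.39.

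PAX8 (ENSG00000125618, GRCh38 chromosome 2, 113215997 to 113278921, minus strand) was the most abundant of the 6 genes. It had 13602, 13693 and 14186 counts in siNC and 8562, 7422 and 8149 in siUSP43. Every control library was above every knockdown library, with little spread inside either group. The groups did not overlap in FPKM for 55.6% of all tested genes. The means were 64.6 ± 1.04 and 38.4 ± 1.67 FPKM (SD, n = 3 each). The log2 fold change was -0.76 (SE 0.05), and 7.52% of all tested genes had one as low or lower. Per length, it stood at 2.41 times SERPINA1 and 144 times FOXA2 in siNC.

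PAX8-AS1, an antisense gene that overlaps PAX8, had 510, 578 and 506 counts in siNC and 434, 296 and 506 in siUSP43, and it fell by 0.36 on the log2 scale (SE 0.11; edgeR, Benjamini-Hochberg adjusted p = 0.0150). The strand setting of the counting is not given, so reads of the pair cannot be told apart, but PAX8-AS1 held 472 counts on average against 10936 for PAX8. PSD4, an exchange factor gene that starts 122 kb from PAX8 on its downstream side, fell by 0.77 (SE 0.09). Of 45 genes that start within 500 kb 13 were tested, and 8 fell, 2 rose and 3 did not pass. Over all tested genes 24.5% fell and 24.1% rose.

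Other PAX genes were at low levels. Of the 8 others 3 were tested, PAX9, PAX5 and PAX6, and 5 had at most 3 counts in any library, PAX2 among them, the kidney factor closest to PAX8. PAX9 had 283, 304 and 244 counts in siNC and 210, 172 and 225 in siUSP43 and fell by 0.43 on the log2 scale (SE 0.11). PAX5 fell by 0.77 at 54, 45 and 53 counts against 33, 21 and 34. PAX6 rose by 0.34 (SE 0.10), but its groups overlapped in FPKM. The PAX6 call was lost with limma, without siNC replicate 2 (adjusted p = 0.0698) and without siUSP43 replicate 1 (0.0538), and the gene overlaps ELP4 on the other strand.

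Most kidney lineage factors that could be tested fell. Of 21 listed genes 9 were tested, of which 7 fell and 2 did not pass, where 24.5% of all tested genes fell. Their median log2 fold change was -0.41. LHX1, which acts in the early nephron, had 760, 719 and 699 counts in siNC and 472, 386 and 549 in siUSP43 and fell by 0.61 on the log2 scale (SE 0.08; edgeR, Benjamini-Hochberg adjusted p = 2.74e-05). Its groups did not overlap in FPKM, as was so for 55.6% of all tested genes. FOXC2 fell by 0.59, FOXD1, a stromal factor, by 0.36 and FOXC1 by 0.34. The FOXC1 call was lost without siNC replicate 2 (adjusted p = 0.0619) or siUSP43 replicate 1 (0.0541). IRX3 fell by 0.91 (SE 0.22), with 108, 195 and 124 counts in siNC against 71, 84 and 67. WT1, SALL1, EMX2 and HOXA11 had at most 3 counts in any library. Of 17 markers of kidney tubule and podocytes 8 had at most 3 counts in any library, with UMOD at 0 in all and LRP2, SLC12A1, SLC34A1 and AQP2 among them. Of the 17, 4 were tested, and 1 rose, 1 fell and 2 did not pass. Over all tested genes 24.1% rose and 24.5% fell. The 4 tested markers had a median log2 fold change of -0.38. The one that fell was CDH6, by 3.73 on the log2 scale as given above. The 17 genes summed to 30.7 to 34.6 CPM, counts scaled to library totals, in siNC and 83.2 to 110.1 in siUSP43, most of it PODXL. PODXL, a podocyte and endothelial sialomucin that cancer cells also make, rose from 3.28 ± 0.232 to 11.6 ± 1.66 FPKM (SD, n = 3 each).

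**Figure D4:**
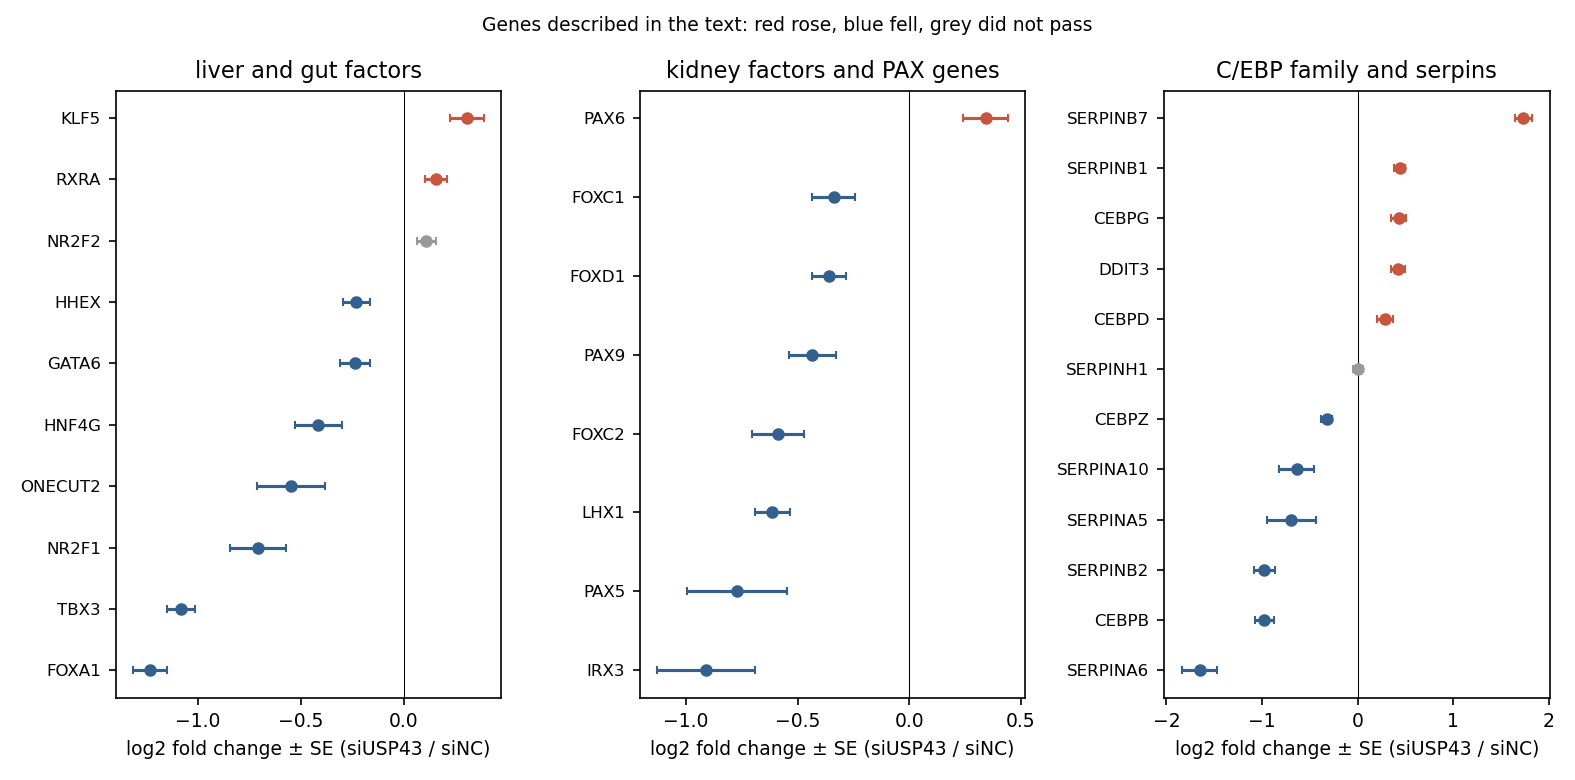
Log2 fold change of siUSP43 over siNC with 1 SE (horizontal axes) for the genes described in the text among tested liver and gut factors, kidney factors and PAX genes, and the C/EBP family and serpins; red genes rose, blue fell and grey did not pass. IRX3, LHX1, FOXC2, FOXD1 and FOXC1 are all blue, PAX6 is the red gene of that panel, and FOXA1 is lowest among the liver and gut factors shown, at -1.23.

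FOXA2 (ENSG00000125798, GRCh38 chromosome 20, 22580998 to 22585455, minus strand) was barely expressed. It had 46, 24 and 37 counts in siNC and 20, 8 and 30 in siUSP43. The groups overlapped, since siUSP43 replicate 3 lay above siNC replicate 2. In FPKM the means were 0.450 ± 0.145 and 0.243 ± 0.120 (SD, n = 3 each), with a log2 fold change of -0.87 (SE 0.36). FOXA1, the related pioneer factor of urothelium and liver, was about an order of magnitude more abundant, at 889, 830 and 842 counts in siNC against 369, 286 and 424 in siUSP43. It fell, from 6.67 ± 0.334 in siNC to 2.85 ± 0.313 FPKM (SD, n = 3 each), by 1.23 on the log2 scale (SE 0.08; edgeR, Benjamini-Hochberg adjusted p = 6.40e-08). FOXA3, the third of the family, had at most 3 counts in any library.

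CEBPA (ENSG00000245848, GRCh38 chromosome 19, 33299934 to 33302534, minus strand) stood near the limit of the test. It had 8, 14 and 13 counts in siNC and 9, 10 and 10 in siUSP43, so the groups overlapped. The means were 0.153 ± 0.0379 and 0.133 ± 0.0153 FPKM (SD, n = 3 each), with a log2 fold change of -0.24 (SE 0.38), and at this depth neither a rise nor a drop could be told. Of 6 relatives 5 were tested, of which 3 rose and 2 fell, where 24.1% of all tested genes rose and 24.5% fell. CEBPE had at most 3 counts in any library. CEBPB, which drives acute phase genes, fell, from 59.3 ± 1.04 in siNC to 30.2 ± 5.98 FPKM (SD, n = 3 each), by 0.98 on the log2 scale (SE 0.10; edgeR, Benjamini-Hochberg adjusted p = 2.80e-06). CEBPG, which lies next to CEBPA, rose, as did CEBPD and DDIT3, a stress-induced member, with log2 fold changes of 0.43, 0.29 and 0.42, while CEBPZ fell by 0.32. The CEBPD call was lost without siNC replicate 1 (adjusted p = 0.0695). DDIT3 overlaps MARS1 and CEBPZ overlaps CEBPZOS, both on the other strand.

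HNF4A (ENSG00000101076, GRCh38 chromosome 20, 44355699 to 44432845, plus strand) was at or below the floor everywhere. It had 0, 2 and 0 counts in siNC and 0, 0 and 0 in siUSP43, and no fold is given. The 3 counts that a library at 0 allows correspond to 0.122 to 0.125 CPM in siNC and 0.117 to 0.140 in siUSP43. HNF4G, its paralog, had 196, 216 and 177 counts in siNC and 158, 123 and 155 in siUSP43, and it fell by 0.41 on the log2 scale (SE 0.11; edgeR, Benjamini-Hochberg adjusted p = 0.00818).

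Over the whole list of liver and gut lineage factors, 17 of 26 were tested, and 8 fell, 2 rose and 7 did not pass, where 24.5% of all tested genes fell and 24.1% rose. Their median log2 fold change was -0.24. TBX3 fell by 1.08 (SE 0.07) and NR2F1 by 0.71 (SE 0.14), while NR2F2, an orphan nuclear receptor and the most abundant of the list at 17.4 ± 0.214 FPKM in siNC (SD, n = 3), did not pass in edgeR (adjusted p = 0.0673) but did with limma on both log2 FPKM scales (0.0408 and 0.0431). HHEX and GATA6, endoderm factors, fell by 0.23 and 0.24 and ONECUT2 by 0.55. These 3 calls each ended with a library left out, HHEX and ONECUT2 without siNC replicate 2 (adjusted p = 0.0539 and 0.0519) and GATA6 without siNC replicate 3 (0.0997) or siUSP43 replicate 2 (0.0524). The ONECUT2 call also ended with limma on log2(FPKM + 1) (0.0998) and log2(FPKM + 0.1) (0.0732). KLF5, an epithelial factor, rose, with a log2 fold change of 0.31. RXRA, the shared partner of nuclear receptors, rose with one of 0.16, which was lost with the replicate block (adjusted p = 0.0696), with limma, and without any single library but siNC replicate 2 or siUSP43 replicate 3 (0.0607 to 0.141). ONECUT1, NR1H4, NR1I2, PDX1, CDX2 and SOX17 had at most 3 counts in any library.

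Genes that mark hepatocytes were read as a list, because bulk RNA does not separate fewer cells of a type from less RNA per cell. Of 36 plasma protein genes 26 had at most 3 counts in every library. Of these 36, 4 were tested, and 1 rose and 3 did not pass, where 24.1% of all tested genes rose. APOA1 and APOA2 were at 0 in all 6 libraries. ALB was at 0 in all siNC libraries, where TTR was present, and had 3, 1 and 0 counts in siUSP43. The summed level of the 36 genes, in CPM, was 17.5 to 19.6 in siNC and 16.4 to 20.6 in siUSP43, most of it RBP4. HPX, the heme carrier, rose, from 9, 7 and 7 counts to 24, 16 and 14, a call lost without siUSP43 replicate 1 (adjusted p = 0.0654). CP, the copper carrier ceruloplasmin, did not pass (adjusted p = 0.0645) but did without siNC replicate 3 (0.0273), with 90, 131 and 81 counts in siNC and 82, 53 and 82 in siUSP43. CP overlaps HPS3 on the other strand, which had 2705 counts on average against 86.5 for CP. Since the strand setting is not given, their reads cannot be told apart. RBP4 passed without siUSP43 replicate 3 (adjusted p = 0.0473).

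Among 24 hepatocyte enzyme and transporter genes, 5 were tested and 3 of them fell, where 24.5% of all tested genes fell. ASS1, of the urea cycle, had 322, 323 and 338 counts in siNC and 136, 114 and 126 in siUSP43, a log2 fold change of -1.36 (SE 0.10; edgeR, Benjamini-Hochberg adjusted p = 1.26e-07). UGT2B7, a glucuronosyltransferase, and ASGR1, a subunit of the asialoglycoprotein receptor, fell by 0.89 and 1.21. CPS1, the first enzyme of the urea cycle, did not pass, at 0.13 (SE 0.07). The list summed to 62.3 to 65.8 CPM in siNC and 51.0 to 55.0 in siUSP43.

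Choroid plexus genes, the other known setting of strong TTR expression, were in part absent. Of 11 genes 6 had at most 3 counts in any library, OTX2, KCNJ13, KL, CLIC6, CLDN2 and LMX1A, and 3 were tested. MSX1, which is not restricted to that tissue, had 338, 402 and 430 counts in siNC and 299, 219 and 225 in siUSP43, most of the list's counts, and fell by 0.63 on the log2 scale (SE 0.12). The list summed to 17.0 to 20.7 CPM in siNC and 10.9 to 14.1 in siUSP43. Markers of blood, endothelial, stromal and neural cells summed to 12.0 to 15.8 CPM in siNC and 12.8 to 13.6 in siUSP43, and 2 of 15 were tested. Neither COL1A1 nor PDGFRB, both stromal genes, passed in edgeR or DESeq2, although PDGFRB had a log2 fold change of -0.44 with an adjusted p of 0.0606 in edgeR and passed without siNC replicate 3 (0.0314). The part of other cells in the TTR counts was not tested beyond these levels.

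**Figure D5:**
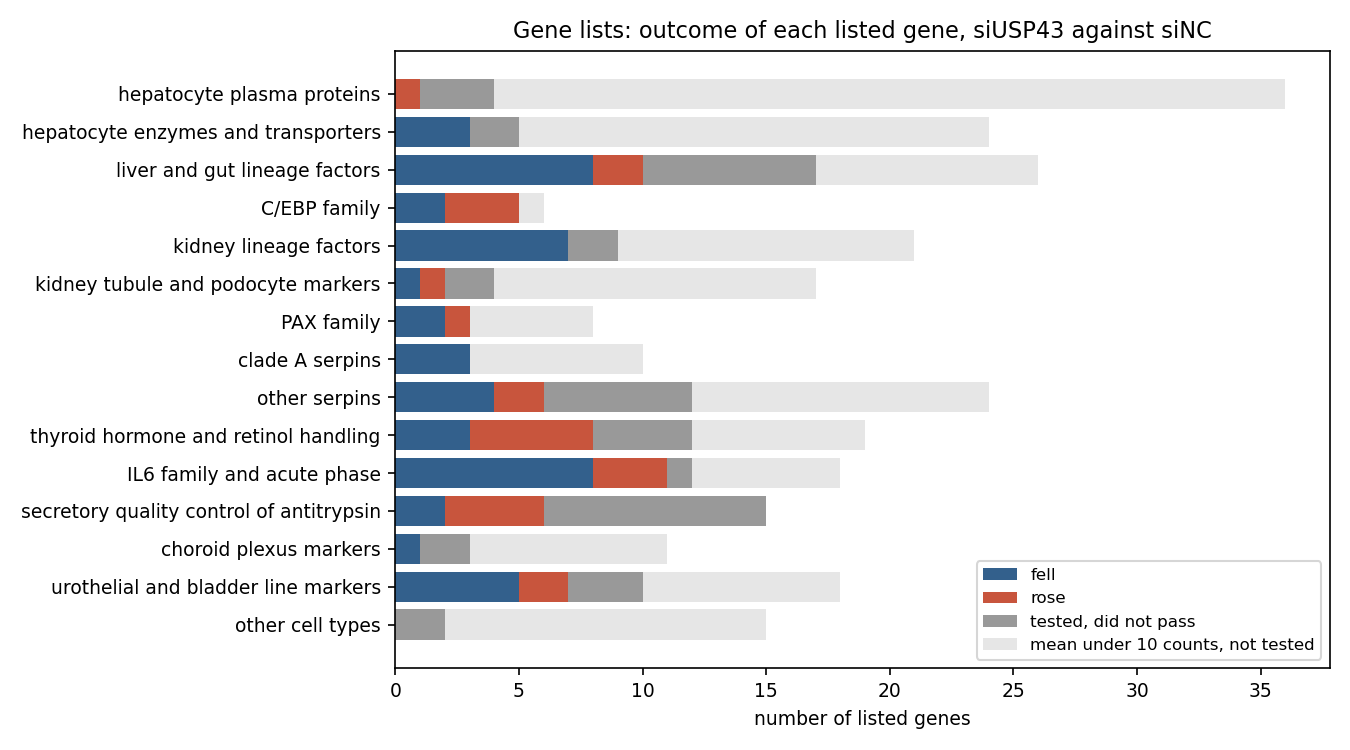
Number of genes in each of the 15 lists (horizontal bars) that fell, rose, did not pass or were not tested for a mean under 10 counts. Of 36 hepatocyte plasma protein genes 4 were tested, while 17 of 26 liver and gut factors and 15 of 15 genes of secretory quality control were.

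Per length, the order of FPKM levels in siNC was PAX8, SERPINA1, TTR, FOXA2, CEBPA and HNF4A, and no neighbours in that order overlapped. In siUSP43 the order was PAX8, SERPINA1, FOXA2 and CEBPA, with TTR and HNF4A both at or near 0. There FOXA2 and CEBPA overlapped, at 0.12 to 0.36 and 0.12 to 0.15 FPKM. HNF4A alone had a mean under 10 counts, and the other 5 genes were part of the fit over 16048 genes, which gives their log2 fold changes and SEs. No call is reported for them, since their choice used this contrast.

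Genes whose FPKM followed the members most closely were found by Pearson correlation of log2(FPKM + 1) over the 6 libraries among 11417 genes with a mean of at least 1 FPKM. The libraries form 2 groups, so a high value mostly records the group difference, and it is given as a description. For TTR, 36 genes reached 0.99, led by TJAP1 (0.998) and LAT2 (0.996). Their highest library was siNC replicate 3, as for TTR, which a choice by correlation with TTR favours. TJAP1 had 4.04, 4.03 and 4.28 FPKM in siNC and 3.41, 3.47 and 3.40 in siUSP43, a far smaller difference than that of TTR. For SERPINA1, 357 genes reached 0.99, led by TMOD1, PGK1 and IRF1, and for PAX8 358 did, led by ZWINT and H3-3B. FOXA2 and CEBPA had 0 such genes, with C2orf68 (0.974) and PFDN5 (0.983) the closest.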

How the data were processed

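RNA was sequenced from 6 T24 libraries, 3 siNC and 3 siUSP43, grouped and numbered by the sample titles. The deposited table gives, per the file headers, raw read counts and FPKM values for 63241 genes. Cutadapt 2.6, HISAT2 2.2.1 and the build GRCh38 are named, per the submitters' processing notes. The counter, annotation release and strand setting are not given in the sources used here.

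Counts were tested with edgeR 4.0.16 in R 4.3.3 (quasi-likelihood fit, TMM scaling with library totals over all genes, group as the only term) over 16048 genes with a mean of at least 10 counts, a rule blind to group that keeps weakly expressed factors. A gene was called when its two-sided p, adjusted by Benjamini-Hochberg over all genes tested, was under 0.05, and fold changes are siUSP43 over siNC. Alternatives used limma 3.58.1 on log2(FPKM + 1) or log2(FPKM + 0.1), DESeq2 1.42.0, other scalings and filters, a replicate block, and each library left out.

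The 6 genes, the 15 lists and the rule for named genes were chosen with earlier results of these data known. The rule named the members, USP43, genes most correlated with a member, genes present in a single group, tested neighbours within 500 kb, and, from each list, the largest called changes and most abundant genes. Not every gene it selects is described, and some list genes that are counted are not reported here by name. Replicate libraries differed by 2.07 to 10.2 times counting noise (chi-square per degree of freedom), so none was a repeat deposit. The edgeR step was tested on simulated data, in which far fewer genes were changed than were called here. It recovered 72% of genes changed 1.5-fold and 80% of those changed 2-fold, and 5% of its calls were false. Counts carry no molecular identifiers, so intervals and the floor of 3 counts cover counting error only.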

Additional observations from a re-analysis of the deposited data

How the results depend on the processing

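The number of genes called stayed within 1.5 times 7798 in every alternative run, from 6409 (mean FPKM of at least 1, with 11417 genes tested) to 7907 (no filter on low counts, with 33934 tested), and from 6523 to 7838 with a library left out. With the replicate block it was 7027. The numbers do not pair the samples, since deviations of same-numbered libraries correlated at 0.037, -0.059 and -0.181. Of 112 tested list genes 70 were called, where 48.6% of all tested genes were. With a mean FPKM of at least 1, 55 of 79 tested list genes were called, the lowest number of all alternatives. The highest was 72, and it was 68 with the replicate block. Log2 fold changes ran from -0.96 to -0.88 for SERPINA1, -0.79 to -0.72 for PAX8, -1.29 to -0.22 for FOXA2 and -0.44 to -0.02 for CEBPA. For TTR the size depends on what is added to a count near 0, with -10.42 in edgeR, -3.36 with limma on log2(FPKM + 1), -6.46 with log2(FPKM + 0.1) and -12.34 without siUSP43 replicate 2, which holds its 1 count. Without siNC replicate 3 the edgeR value was -9.89. Calls of IL6ST, KRT8, RXRA and SERPINA5 were each lost in 7 to 9 alternatives. No called direction reversed. Of gene lists, counts in a direction that changed by over 1.5 times moved by at most 2 genes. Depth limits FOXA2, CEBPA and HNF4A, each at under 50 counts in every library.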
